A study of Homo sapiens with 8 samples.

Results

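HuR-bound RNA was compared between IMR90 human fetal lung fibroblasts that carry an shRNA against HuR (shHuR) and those that carry a control shRNA (shControl). In each line, RNA recovered with an anti-HuR antibody was sequenced beside the input RNA, and the enrichment of a gene is its precipitate level divided by its input level. The compared quantity is the log2 enrichment in shHuR minus that in shControl. It was computed for 13902 of the 57736 genes in the table, those with 50 or more counts in at least 1 of the 4 libraries, which are 4 of the 8 samples of the series. A shADAR1 precipitate and input from the same experiment keep HuR and served as a second reference. Each group is 1 library, so the difference between shHuR and shControl has no replicate check, and no mock or IgG precipitate was analysed here. IMR90 is an untransformed line with a limited lifespan, and whether a line is a clone or a pool is not given in the sources used here.

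HuR, encoded by ELAVL1, is an RNA-binding protein that recognises AU-rich and U-rich stretches, mostly in 3′ UTRs and introns. It is known for stabilising short-lived mRNAs of growth factors, cytokines and cell cycle regulators. In dividing fibroblasts HuR is abundant, and its level falls as cells become senescent.

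The 4 libraries held between 29233961 and 38953671 counts. A pair of genes listed by identifier alone, ENSG00000265150 and ENSG00000258486, took 13.6% of the shControl input and 10.5% of the shHuR input. The pair took 0.167% of the shControl precipitate and 2.09% of the shHuR precipitate, against 0.443% of the shADAR1 precipitate. All 8 fibroblast markers listed reached the count minimum, as did 3 of 5 endothelial, 3 of 5 epithelial and 1 of 4 leukocyte markers. The leukocyte one, CD68, shares most of its exon sequence with other genes. None of the fibroblast markers was called 2-fold lower in enrichment in shHuR, and 1, COL1A1, was called higher. Among all genes compared, 18.1% were called lower and 23.6% higher.

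The targeted gene was checked first. ELAVL1 had 27765 counts in the shControl precipitate and 4806 in the shControl input, against 742 and 674 in shHuR. In shADAR1 it had 23285 and 3545. Its input level was 6.67-fold lower in shHuR. The HuR mRNA is itself bound by HuR, and its precipitate-to-input ratio was 9.85 in shControl, 7.86 in shADAR1 and 2.23 in shHuR. The log2 difference between shHuR and shControl was -2.14, with a 95% interval of -2.30 to -1.98. Intervals here and below are conditional intervals of the ratio of 4 counts and cover counting error only.

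The sequences below show examples of an AU-rich and a U-rich motif. They come from genes among the lowest in the difference and from genes among the most enriched in shControl. Each is a 29-base stretch of the 3′ UTR, written with T for U from GENCODE 29 transcripts of GRCh38, with the motif in capitals. The first set holds genes whose enrichment was among the lowest in shHuR relative to shControl and whose 3′ UTR contains the AU-rich nonamer TTATTTATT.
HDAC2: cctattatgtTTATTTATTttttcttttt
CXCL8: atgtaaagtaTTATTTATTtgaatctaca
IL1B: gcttccctatTTATTTATTtatttgtttg
MBNL2: attttgctttTTATTTATTtataatgtaa

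The second set holds genes among the 10 most enriched in shControl, whose log2 difference lay between -0.15 and 0.02 in shHuR. Here the capitals mark the first U-run, TTTTTTT, that lies far enough from the ends of the 3′ UTR.
EIF5AL1: gtggtttagtcTTTTTTTtttttttaaat
RAB2B: ctggcttgaacTTTTTTTgtccttcctgg
TFPI: attggtttcacTTTTTTTtttgtttgacc
LCLAT1: tattgctacaaTTTTTTTtaatctctgaa
EFNA5: tgagacactggTTTTTTTttttaatatga
UBE2N: agtatctgaccTTTTTTTaaccttctagg

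The genes shown come from larger groups, the 27 lowest overall or lowest of the enriched and the 10 most enriched in shControl. The nonamer was rare in both groups. It occurred in 16% of the 25 genes with a 3′ UTR in the first group, in 12.5% of the 8 with a 3′ UTR in the second, and in 9.94% of all 12158 genes with one. The pentamer ATTTA, which lies inside the nonamer, occurred in all of these genes in both groups and in 75% of all genes. Copy numbers of U-runs and of ATTTA differed between the groups. Medians per 3′ UTR were 3 TTTTTTT in the first group and 27.5 in the second, and 5 and 11 ATTTA. Over all genes with a 3′ UTR, the medians were 1 TTTTTTT and 2 ATTTA. The 3′ UTRs also differed in length, with medians of 1490 and 3466 bases. Overlapping copies were counted on the transcript's own strand only, and these counts describe groups that were chosen by their values.

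Enrichment covered a narrower range in shHuR cells than in shControl cells. The SD of log2 enrichment over genes was 1.59 in shHuR, against 1.99 in shControl and 1.80 in shADAR1. At least 2-fold enrichment was seen for 3146 genes in shHuR, 4259 in shControl and 4138 in shADAR1. Of the 4259 genes enriched in shControl, 2760 (64.8%) were still enriched in shHuR and 3730 (87.6%) in shADAR1. A further 499 had more input than precipitate in shHuR. Another 386 genes were enriched in shHuR and not in shControl. Across genes, the Pearson correlation of log2 enrichment was 0.78 between shControl and shHuR and 0.92 between shControl and shADAR1 (n = 13902). This is a description across genes, which are not independent replicates.

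**Figure D1:**
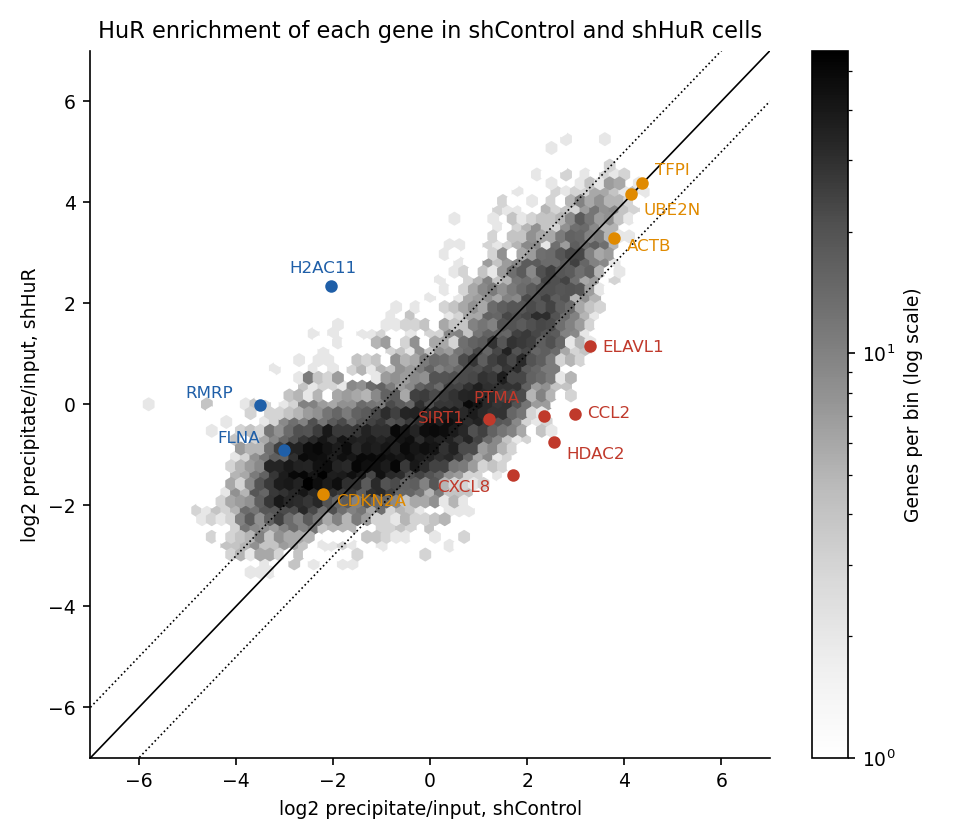
Log2 precipitate/input of each gene in shControl (horizontal axis) and shHuR (vertical axis), with darker bins for more genes, the solid line at equality and dotted lines at 2-fold. Named genes are coloured red where lower by 2-fold or more in shHuR, blue where higher and orange otherwise; the cloud is flatter than the line, with TFPI and UBE2N on it at the upper end.

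Enrichment was at least 2-fold lower in shHuR for 2512 genes, 18.1% of those compared, and at least 2-fold higher for 3284, or 23.6%. The genes called lower went from a median log2 enrichment of 1.19 in shControl to -0.39 in shHuR, so their median moved from precipitate to input. Those called higher went from -2.50 to -0.80 and remained depleted from the precipitate on the median. Among the lower genes, the precipitate level alone moved past 2-fold for 1176 and the input level alone for 408. Among the higher genes these counts were 1687 and 589. Both levels stayed within 2-fold for 522 lower and 553 higher genes, whose difference is the sum of smaller changes. The zero point of the difference depends on the scaling: TMM put the median of all genes at 0.06, DESeq2's size factors at 0.17 and total counts at 0.15.

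Whether shHuR lay outside the spread between the lines that keep HuR was tested with edgeR's quasi-likelihood test over 6 libraries. shControl and shADAR1 stood in as replicates, with cell line as a block and 1 residual degree of freedom, so any effect of ADAR1 knockdown counts as spread. At a Benjamini-Hochberg adjusted p of 0.05, enrichment was lower in shHuR for 216 of 17449 genes (1.24%) and higher for 788 (4.52%). The split depends on the scaling, since DESeq2's size factors in the same test gave 366 lower and 505 higher. With the scaling of the 4-library difference, an alternative chosen after seeing the data, it was 605 lower and 373 higher. Without the cell line block no gene passed in either direction, and 132 lower and 614 higher had an unadjusted p under 0.05. With 1 culture per line, the p-values speak of these libraries and not of repeated experiments. Genes named below for a low or high difference were chosen on 4 of these 6 libraries. Their adjusted p-values are therefore no independent support.

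Lower enrichment was most frequent among moderately enriched RNAs and not among the most enriched ones. Genes were classed by their enrichment in shADAR1, whose libraries do not enter the difference. Among the 1890 genes with a shADAR1 log2 enrichment of 1 to 2, the median fell from 1.58 in shControl to 0.85 in shHuR, and 35.5% were called lower. Among the 651 genes above 3, the medians were 3.17 and 3.32, with 5.22% called lower and 16.3% higher. The 1597 genes between them, at 2 to 3, had medians of 2.43 and 2.17. At the other end, the 393 genes at or below -3 had medians of -3.49 and -2.29, and 58.0% were called higher. The share of genes called lower was therefore highest in the middle classes and small at both extremes.

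**Figure D2:**
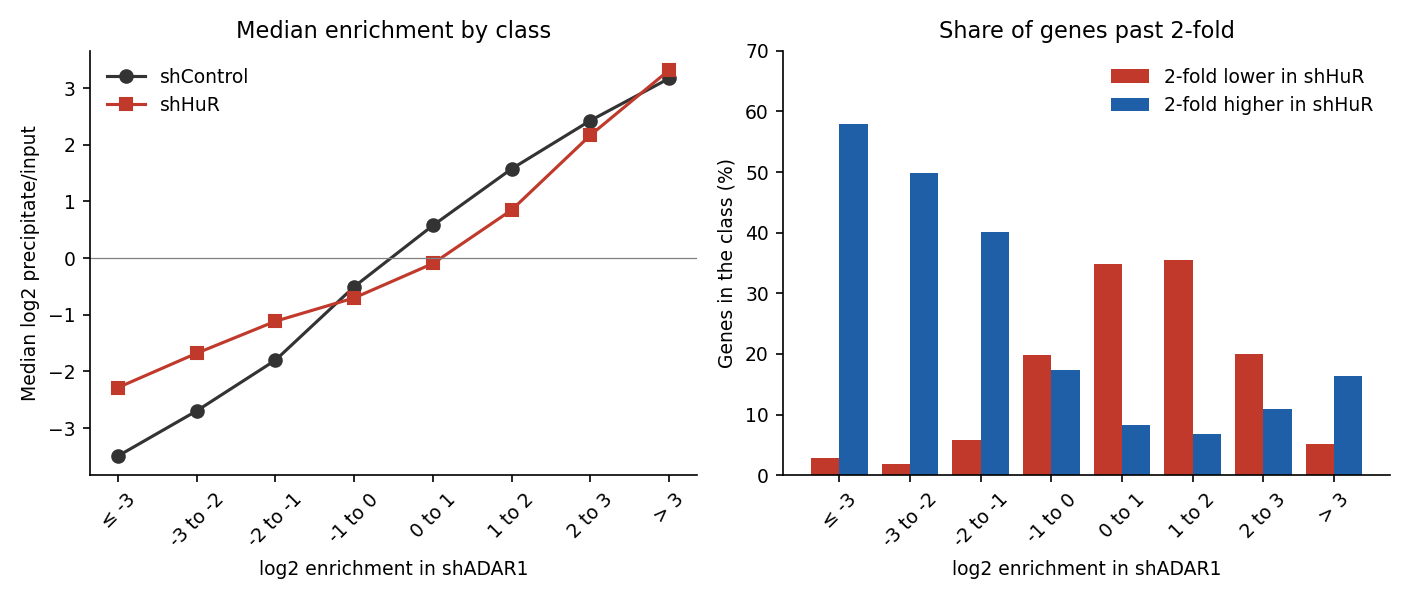
Genes classed by log2 enrichment in shADAR1 (horizontal axes), with the median log2 precipitate/input in shControl and shHuR on the left and the percentage of genes past 2-fold in each direction on the right. The shHuR medians lie below shControl between -1 and 3 and meet them above 3, where 5.22% of genes were called lower.

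Single genes among the most enriched RNAs of shControl cells are described next. They were chosen by their shControl ratio, which is part of the difference, so they are no independent support. TFPI, the inhibitor of tissue factor, had 23579 precipitate and 1938 input counts in shControl and 75807 and 7403 in shHuR. Its ratio was 20.7 and 20.8, a log2 difference of 0.00 (95% interval -0.08 to 0.08), while its input level was 4.06-fold higher in shHuR. UBE2N, a ubiquitin-conjugating enzyme that builds K63 chains, had 41918 and 4044 counts in shControl and 40246 and 4562 in shHuR, with ratios of 17.7 and 17.9. The shADAR1 ratios of TFPI and UBE2N were 10.5 and 11.7, below both other lines, and those of EIF5AL1 and EFNA5 were 17 and 10.9.

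Most other members of this group had close ratios in both lines. EIF5AL1, a copy of the translation factor gene EIF5A, had the highest ratio in shControl at 27, against 24.2 in shHuR. EFNA5, an ephrin ligand, had ratios of 17.7 and 16.6. RAB2B, a Golgi RAB GTPase, had 20.9 and 19.9, and LCLAT1, a cardiolipin-remodelling acyltransferase, had 17.9 and 16.4. GRPEL2, a mitochondrial co-chaperone, went from 17.1 to 14.1 and RBMS3, an RNA-binding protein, from 17.3 to 11.4. SNHG16, a noncoding RNA that hosts small nucleolar RNAs, was higher in shHuR at 33.5 against 21, and this passed the edgeR test (adjusted p = 0.0279). The one that lost most was EIF4EP2, a processed copy of EIF4E, with 22.9 and 6.95. EIF4EP2 and EIF5AL1 resemble their parent genes, so their reads may be shared with them. ACTB, a long-known HuR target, took 7.69% of the shControl precipitate and 5.71% of the shHuR precipitate. Its ratio was 13.8 in shControl and 9.76 in shHuR, a log2 difference of -0.50.

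Genes were ranked among those with a symbol, at least 20 counts in each library, 100 in a precipitate and exon overlap of at most 50%. Among the 15 lowest were a TCEAL family gene, a histone deacetylase and 3 cytokines. TCEAL8, of the TCEAL family related to transcription elongation factors, had 7608 precipitate and 2234 input counts in shControl, against 903 and 3397 in shHuR. Its ratio went from 5.8 to 0.539, a log2 difference of -3.43 (95% interval -3.56 to -3.30), with 3.3 in shADAR1. HDAC2, a class I histone deacetylase and reported HuR target, had 15603 and 4529 counts in shControl and 1098 and 3742 in shHuR. Its ratio went from 5.87 to 0.595, a log2 difference of -3.30 (95% interval -3.41 to -3.19), with 3.33 in shADAR1. Input levels of both genes differed by less than 2-fold, so the change lay in the precipitate. Both passed the edgeR test, with adjusted p = 4.7e-06 for TCEAL8 and 4.41e-06 for HDAC2. That test includes the libraries the genes were ranked on, so passing it is no independent check.

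For the other genes of the 15 lowest, input levels also differed by less than 2-fold, apart from NAMPTP1 and the cytokines. Input of CCL2, CXCL8 and IL1B was 3.92-, 906- and 11.2-fold higher in shHuR. SNRPF, a core protein of spliceosomal snRNPs, differed by -3.37 and EIF1B, a translation initiation factor, by -3.27. CAMTA1, a calmodulin-binding transcription activator, differed by -3.04, PSMD10, a chaperone of proteasome assembly, by -2.96 and VPS4B, the ATPase of ESCRT disassembly, by -2.95. MRPL30, of the mitochondrial ribosome, differed by -2.96 and BTF3, of the nascent polypeptide-associated complex, by -2.88. NXT2, an mRNA export factor, and HSD17B11, a lipid droplet dehydrogenase, both differed by about the same, at -2.90 and -2.89. All of these passed the edgeR test, which includes the libraries they were ranked on. EIF1B and BTF3 were already below 1 in shADAR1, at 0.583 and 0.616, so for these genes the reference lines differed too. NAMPTP1, a processed NAMPT copy that may share its reads, differed by -3.06 with a 3.61-fold higher input and did not pass (adjusted p = 0.13).

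A second group was chosen for a mean log2 enrichment of at least 1 over both lines before ranking. In it, TMCO1, an endoplasmic reticulum calcium channel, differed by -2.82 and MBNL2, a splicing regulator, by -2.68. ARL6IP1 and SELENOT, proteins of the endoplasmic reticulum membrane, differed by -2.47 and -2.54, TRAM1, of the protein translocation site, by -2.62 and GOLPH3, of the Golgi, by -2.41. Input levels were 3.36-fold higher in shHuR for TMCO1, 3.02-fold for SELENOT, 2.78-fold for TRAM1 and 2.34-fold for MBNL2, so part of these differences lay in the input. HAS2, the hyaluronan synthase of fibroblasts, had 3445 precipitate and 756 input counts in shControl and 107 and 192 in shHuR, so both levels fell and the ratio went from 7.75 to 1.13. PTMA, prothymosin alpha and a reported HuR target, had 59987 and 20187 counts in shControl and 1169 and 2774 in shHuR. Its ratio went from 5.07 to 0.854, and its input level was 6.83-fold lower in shHuR. ATF2, an AP-1 family transcription factor, went from 7.7 to 1.42 at an input level that differed by less than 2-fold. Each gene named here passed the edgeR test, which includes the libraries used to choose them.

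**Figure D3:**
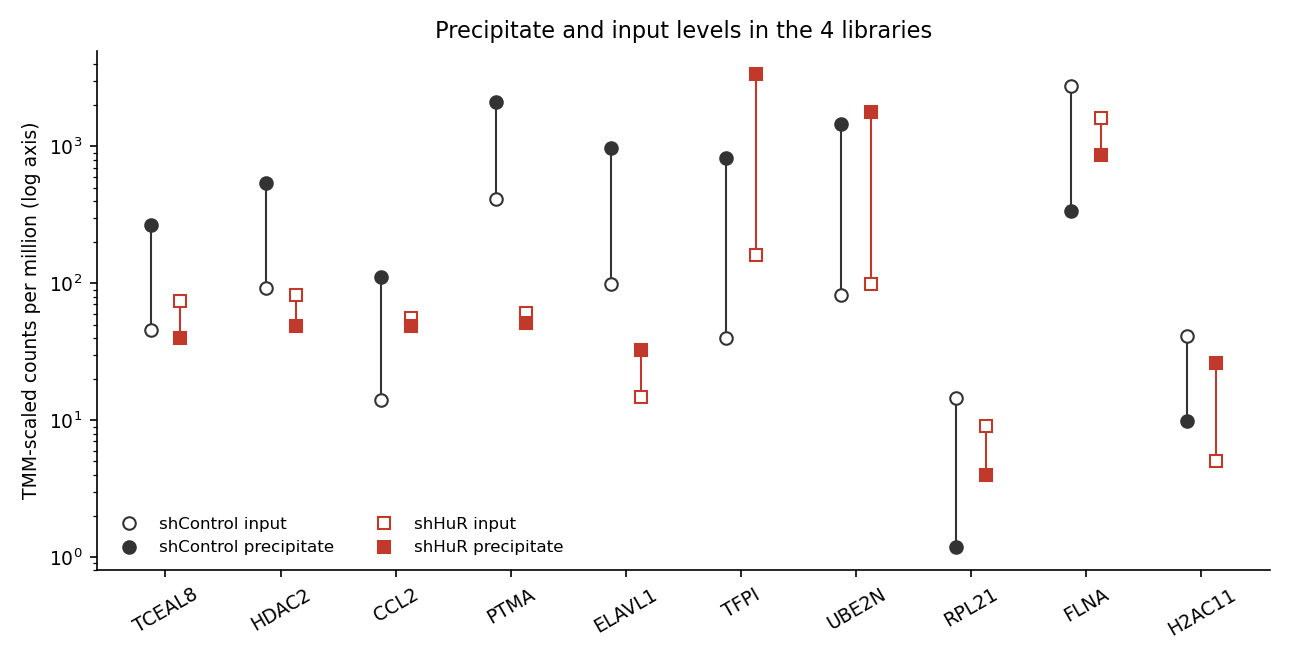
TMM-scaled CPM (log axis) of 10 genes in the shControl and shHuR libraries, with open symbols for input and filled symbols for precipitate, 1 library each, joined within a line. For TCEAL8 and HDAC2 the shHuR precipitate drops below its input; TFPI and UBE2N keep their distance; RPL21, FLNA and H2AC11 move from depletion towards the precipitate.

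Reported HuR targets were lower on the median, with large differences between them. Of 40 measured, 16 were called lower and 1 higher, where 18.1% and 23.6% of all genes were, with a median of -0.55 beside 0.06 for all genes. The edgeR test was passed by 8 lower and 0 higher, beside 213 lower and 776 higher of the 13902 genes compared. Over all 17449 genes tested, the shares were 1.24% and 4.52%. MYC, a growth-promoting transcription factor, went from 3.95 to 0.932, a log2 difference of -2.08, with 4.02 in shADAR1. SIRT1, the NAD-dependent deacetylase, had 1414 precipitate and 1038 input counts in shControl and 209 and 518 in shHuR. Its ratio went from 2.32 to 0.819, a log2 difference of -1.51 (95% interval -1.77 to -1.24) that did not pass the edgeR test (adjusted p = 0.273). With GC and length trends removed, the log2 difference of SIRT1 was -0.76. Its input level was 1.88-fold lower in shHuR. TGFB1, the fibrogenic cytokine, was the one called higher, going from 0.118 to 0.327, and was depleted in both lines. SNAI1, a repressor of epithelial genes, had ratios of 0.29 and 0.456.

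RNA-binding proteins of AU-rich elements included HuR itself and had a median below that of the reported targets. Of 18 measured, 10 (55.6%) were called lower and 0 higher, beside 18.1% and 23.6% of all genes. Their median was -1.10, and 3 passed the edgeR test as lower, beside 1.24% of all genes tested. YBX1, a cold-shock domain protein, went from 0.716 to 0.165, with 0.264 in shADAR1 (adjusted p = 0.0962). TIAL1 and ZFP36L2, which bind AU-rich elements and repress or destabilise their mRNAs, had differences of 0.33 and 0.62 and did not pass.

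Inflammatory secretory genes had the lowest list median, together with a large rise in input. Of 29 measured, 18 (62.1%) were called lower and 1 (3.45%) higher, beside 18.1% and 23.6% of all genes. The median was -1.63, and 4 passed the edgeR test as lower and 0 as higher, beside 1.24% and 4.52% of all genes tested. Of the 29, 7 are also among the reported HuR targets, CXCL8 and IL1B included. Their median input difference was 3.08 and their median precipitate difference 1.42, so the precipitate rose less than the input. CXCL8, the neutrophil chemokine interleukin 8, had 53 precipitate and 26 input counts in shControl, against 4558 and 24392 in shHuR. The ratio went from 3.25 to 0.379, a log2 difference of -3.20 (95% interval -3.94 to -2.49, adjusted p = 0.0137), with 0.975 in shADAR1. In bulk RNA, more cells expressing a gene and more RNA per cell cannot be told apart.

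CCL2 and IL1B also had lower ratios and higher inputs in shHuR, but their precipitates differed in direction. CCL2, the monocyte chemokine, had 3212 and 691 counts in shControl and 1101 and 2549 in shHuR, and its ratio went from 7.9 to 0.876. The shADAR1 ratio of CCL2 was 3.72, between the other lines. IL1B, interleukin 1 beta, had 123 and 49 counts in shControl and 155 and 543 in shHuR, and its ratio went from 4.11 to 0.581. Both passed the edgeR test, with adjusted p = 0.000199 for CCL2 and 0.00914 for IL1B. IGFBP7, an insulin-like growth factor binding protein, was the one called higher, from 0.163 to 0.376 (adjusted p = 0.102).

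Immediate early genes were mixed. Of 24 measured, 8 (33.3%) were called lower and 3 (12.5%) higher, beside 18.1% and 23.6% of all genes. Their median was -0.35, and 3 passed the edgeR test as lower, beside 1.24% of all genes tested. NR4A2, an orphan nuclear receptor, went from 2.82 to 0.534 while its input rose by 2.17 on the log2 scale. NR4A1 and IER5 differed by 1.07 and 1.12 and did not pass.

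The series' title concerns p16INK4a and ADAR1, whose genes differed as follows. CDKN2A, which encodes p16INK4a, had 144 precipitate and 1141 input counts in shControl and 280 and 1947 in shHuR. It was depleted from the precipitate in all 3 lines, with ratios of 0.217 in shControl, 0.292 in shHuR and 0.267 in shADAR1. The log2 difference was 0.44 (95% interval 0.12 to 0.76) and did not pass the edgeR test (adjusted p = 0.611). The direction turned when GC and length trends were removed, to -0.82. ADAR, the RNA-editing enzyme, went from 3.29 to 1.27, a log2 difference of -1.38 (adjusted p = 0.115). CDKN1A, the p21 cell cycle inhibitor, had ratios of 0.925 and 0.754. RB1, the retinoblastoma protein that p16 acts through, went from 3.92 to 1.11 without passing (adjusted p = 0.0801). SIRT7 went from 0.107 to 0.621 and passed (adjusted p = 0.0363), from 25 precipitate counts in shControl.

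Cell cycle genes had much lower input in shHuR. Their median input difference was -3.68 and their median precipitate difference -3.31, leaving an enrichment median of 0.27 over 34 genes. Of these, 6 (17.6%) were called lower and 10 (29.4%) higher, beside 18.1% and 23.6% of all genes. The share called lower was thus close to that of all genes. As higher, 3 passed the edgeR test, beside 4.52% of all genes tested. MCM7, a subunit of the replicative helicase, went from 0.0936 to 0.448 (adjusted p = 0.0104) and CENPE, a kinetochore motor, from 0.28 to 0.977 (adjusted p = 0.0367). LMNB1, the nuclear lamin lost in senescent cells, had 4502 precipitate and 1709 input counts in shControl and 58 and 63 in shHuR, and its ratio went from 4.49 to 1.83 (adjusted p = 0.401).

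Replication histone mRNAs, most of which end in a stem-loop instead of a poly(A) tail, had the highest median of the protein-coding lists. Of 47 listed, 22 were measured, with a median of 1.93. Of these, 16 (72.7%) were called higher and 1 (4.55%) lower, beside 23.6% and 18.1% of all genes. The edgeR test was passed by 10 as higher, beside 4.52% of all genes tested. H2AC11 had 283 precipitate and 2001 input counts in shControl and 588 and 232 in shHuR, and its ratio went from 0.242 to 5.09, with 1.04 in shADAR1. Its log2 difference was 4.41 (95% interval 4.12 to 4.70). H2BC18 went from 0.259 to 3.88 and H1-4 from 0.075 to 0.696. The median input difference was -3.19 and the median precipitate difference -1.03, so both fell and the input fell further. H4C8 went the other way, from 1.61 to 0.629. Histone genes are near-identical copies of each other, and the assignment of reads between them is uncertain.

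Ribosomal protein mRNAs, short and abundant, were less deeply depleted in shHuR. Of 80 measured, 47 (58.8%) were called higher and 0 lower, beside 23.6% and 18.1% of all genes. The median was 1.11, and 28 passed the edgeR test as higher, beside 4.52% of all genes tested. Their median log2 enrichment was -3.53 in shControl, -3.23 in shADAR1 and -2.28 in shHuR. RPL21 had 34 precipitate and 707 input counts in shControl and 90 and 417 in shHuR, and its ratio went from 0.0855 to 0.441 (adjusted p = 0.0245). RPL27 had the lowest difference, at -0.62. Processed copies of many of these genes exist, which makes single members uncertain.

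Small structural RNAs had the highest median of all lists. All 6 measured of 18 listed were called higher, beside 23.6% of all genes. The median was 3.00, and 4 passed the edgeR test as higher, beside 4.52% of all genes tested. RNU1-1, of the U1 spliceosomal snRNP, had 153 precipitate and 1404 input counts in shControl and 942 and 1322 in shHuR, and its ratio went from 0.187 to 1.44 (adjusted p = 0.00026). RMRP, the RNA of RNase MRP, went from 0.0882 to 0.995, and SNORD3A, the U3 small nucleolar RNA, from 0.19 to 1.17. By annotated type, 11 of 12 snRNA genes, 8 of 8 snoRNA genes and 8 of 9 genes of miscellaneous RNA were called higher. RMRP overlaps another annotated gene over 98.5% of its exons.

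Nuclear-encoded respiratory chain genes and proteasome subunits had medians between 0 and 1. Of 42 respiratory genes, 16 (38.1%) were called higher and 1 (2.38%) lower, beside 23.6% and 18.1% of all genes. Their median was 0.78, and 3 passed the edgeR test as higher. Over all genes tested, 1.24% passed as lower and 4.52% as higher. COX5B, of cytochrome c oxidase, went from 0.0506 to 0.206 (adjusted p = 0.0211). Of 30 proteasome genes, 7 were called higher and 1 lower, with a median of 0.57, a share of 23.3% higher beside 23.6% of all genes, and 0 passed the edgeR test in either direction. PSMB2, a catalytic-core subunit, was the lower one, from 1.72 to 0.666 (adjusted p = 0.182). The 13 mitochondrially encoded mRNAs were not among the genes compared.

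Ubiquitin-conjugating and trafficking genes had medians below 0. Their counts stand beside 18.1% of all genes called lower and 23.6% called higher. Of 32 UBE2 ubiquitin-conjugating enzymes, 14 were called lower and 1 higher, with a median of -0.93. UBE2L3, a partner of HECT and RBR ligases, went from 1.19 to 0.341 (adjusted p = 0.0819), and UBE2S, of the anaphase-promoting complex, from 0.0858 to 0.36 (adjusted p = 0.0252). Of 27 RAB GTPases, 10 were called lower and 3 higher, with a median of -0.79. RAB2A and RAB14, of the Golgi and endosomes, went from 3.66 to 0.801 and from 3.37 to 0.769, and both passed the edgeR test (adjusted p = 0.0147 and 0.0131). RAB13 rose from 0.0725 to 0.35 (adjusted p = 0.00111). TMED and other early secretory genes had 7 of 22 called lower and 3 higher, with KDELR2, the receptor that returns proteins to the endoplasmic reticulum, going from 6.58 to 1.74 (adjusted p = 0.0135).

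Actin cytoskeleton genes split by member. Of 35, 11 (31.4%) were called lower and 5 (14.3%) higher, beside 18.1% and 23.6% of all genes. The median was -0.30, and the edgeR test was passed by 5 as lower and 4 as higher, beside 1.24% and 4.52% of all genes tested. PFN1, which delivers actin monomers, had 109447 precipitate and 45600 input counts in shControl and 17634 and 33800 in shHuR, and its ratio went from 4.09 to 1.06 (adjusted p = 0.00617). ARPC5, of the Arp2/3 complex, went from 3.17 to 0.677 (adjusted p = 0.0146). FLNA, the actin crosslinker filamin A, had 9716 and 134381 counts in shControl and 19545 and 73755 in shHuR, and its ratio went from 0.123 to 0.537 (adjusted p = 0.00026). TAGLN, transgelin, went from 0.0898 to 0.232 (adjusted p = 0.0231). These 4 genes were chosen for the lowest and highest differences of the list, and the shControl ratio is part of the difference. That the ones that fell were enriched in shControl and the ones that rose depleted there is therefore partly built into the choice.

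Of 25 matrix genes, 4 (16%) were called lower and 3 (12%) higher, beside 18.1% and 23.6% of all genes. Their median was -0.19, and 2 passed the edgeR test as higher, beside 4.52% of all genes tested. COL1A1, a chain of type I collagen, went from 0.605 to 1.75 (adjusted p = 0.00656) while its input fell by 1.32 on the log2 scale. COL6A2 went from 0.144 to 0.428 (adjusted p = 0.0416). LUM and LOX, a proteoglycan and a collagen crosslinker, went from 1.18 to 0.214 and from 1.23 to 0.366, with input rises of 2.39 and 1.82 on the log2 scale, and neither passed.

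Among long noncoding RNAs, 3 of 20 (15%) were called lower and 5 (25%) higher, close to the 18.1% and 23.6% of all genes, with a median of 0.03. MALAT1, a nuclear speckle RNA, had 52442 precipitate and 26648 input counts in shControl and 12142 and 24233 in shHuR, and its ratio went from 3.36 to 1.02 (adjusted p = 0.0353). NEAT1, the scaffold of paraspeckles, went from 2.73 to 0.798 (adjusted p = 0.0631). PVT1 went from 0.713 to 3.26 (adjusted p = 0.0306).

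**Figure D4:**
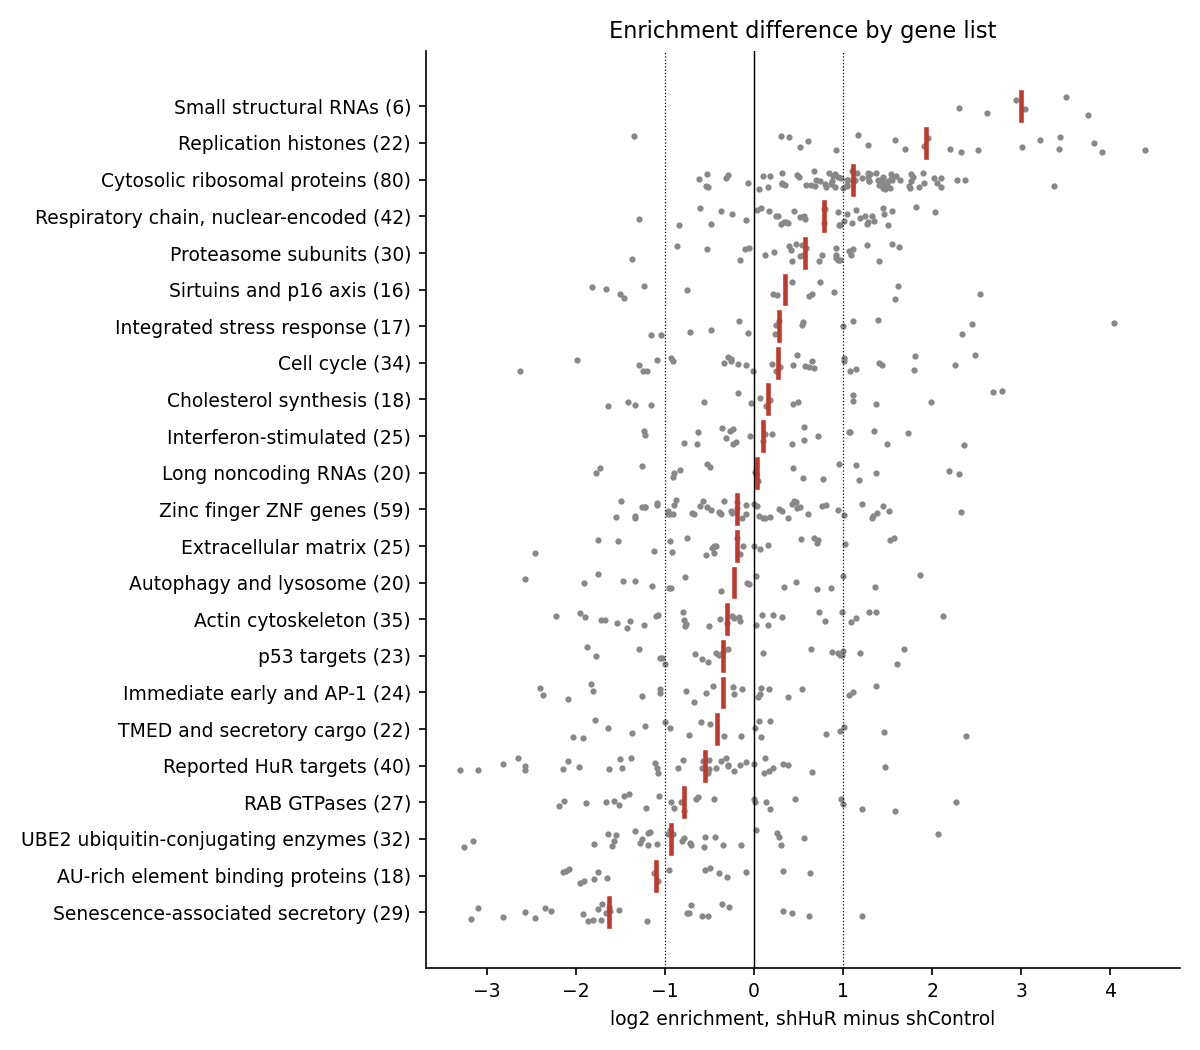
Log2 enrichment in shHuR minus shControl (horizontal axis) for each measured member of the gene lists with 6 or more members, without the fibroblast markers. Grey points are genes, red bars list medians, numbers in brackets the members, and dotted lines 2-fold. Medians run from -1.63 for inflammatory secretory genes to 3.00 for small structural RNAs, and most lists have members on both sides of 0.

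Counts for the remaining lists were as follows, where 18.1% of all genes were called lower and 23.6% higher. Autophagy and lysosome genes had 6 of 20 called lower and 2 higher, with GABARAPL2, an ATG8 family protein, going from 3.86 to 0.652 (adjusted p = 0.00268). p53 targets had 5 of 23 lower and 3 higher. The edgeR test was passed by 0 of them, beside 1.24% of all genes tested as lower and 4.52% as higher. Cholesterol synthesis genes had 4 of 18 lower and 6 higher, and MVD, of the mevalonate pathway, went from 0.105 to 0.726 (adjusted p = 0.00107). Integrated stress response genes had 2 of 17 lower and 5 higher, and interferon-stimulated genes 2 of 25 and 6. Zinc finger ZNF genes had 9 of 59 lower and 8 higher. The sirtuin and p16 list had 5 of 16 lower and 3 higher.

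Among genes with a symbol, at least 20 counts in each library and 100 in a precipitate, and little exon overlap, those with the highest differences included several that are not histones and were depleted from the shControl precipitate. SNX8, a sorting nexin, had 365 precipitate and 3241 input counts in shControl and 2443 and 2761 in shHuR, and its ratio went from 0.193 to 1.79 (adjusted p = 1.02e-05). DCHS1, a giant cadherin, went from 0.246 to 2.75 as its input fell by 3.75 on the log2 scale. JOSD2, a deubiquitinase, went from 0.0667 to 0.602, and FANCG, of the Fanconi anaemia core complex, from 0.18 to 1.6. Both had fewer than 100 precipitate counts in shControl, and all 4 genes passed the edgeR test, which includes the libraries they were ranked on. The GC content of these 4 genes lay between 58.1% and 69.4%. With GC and length trends removed, the log2 differences were 1.98 for SNX8, 2.16 for DCHS1, 1.04 for JOSD2 and 2.33 for FANCG. KNL1, a kinetochore scaffold, was among the genes enriched on average and went from 1.4 to 8.71 (adjusted p = 0.00026) at nearly the same precipitate level, as its input fell by 2.64 on the log2 scale. NBPF20 and RPS6P20 went from 1.04 to 7.85 and from 2.44 to 14.9, and both have near-identical copies in the genome that make their counts uncertain.

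Base composition and 3′ UTR motifs were then read against the difference. Genes called lower had a median GC content of 41.5%, those called higher 58.4% and the rest 46.8%. By GC content, the median difference ran from -0.83 below 40% to 1.5 above 60%. Across 13496 genes the Pearson correlation of the difference with GC content was 0.58, as a description over genes that share the same 4 libraries. Smooth trends in GC content and transcript length accounted for 35.6% of the variance of the difference.

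AU pentamers followed the same axis. Genes with 0 ATTTA in the 3′ UTR had a median difference of 1.04, and those with 11 to 20 a median of -0.73, with 35% called lower. After removal of the GC and length trends these medians were 0.34 and -0.10. Among genes enriched at least 2-fold on the mean of shControl and shHuR, the trend-removed medians ran from -0.17 with 0 ATTTA to 0.13 with over 20. With the trends removed, the order by ATTTA was thus flatter among all genes with a 3′ UTR and turned round among the enriched ones.

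U-runs gave a curve with a minimum. Among the same enriched genes, those with 3 to 5 TTTTTTT had a median difference of -0.95 and 46.4% were called lower, and those with over 20 had -0.03 and 5.76%. Their median log2 enrichment went from 2.07 to 1.14 in the first class and from 2.65 to 2.63 in the second. With trends removed the medians were -0.61 and 0.37, so the order of these classes stayed. It also held within a fixed range of ATTTA. Among enriched genes with 11 or more ATTTA, the median difference was -1.17 with 1 to 5 TTTTTTT (80 genes) and -0.18 with 21 or more (343 genes). Among those with 0 to 2 ATTTA, it was -0.51 (160 genes) and 0.51 (59 genes). The enriched genes were selected with the same 4 libraries, so these medians are descriptions.

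**Figure D5:**
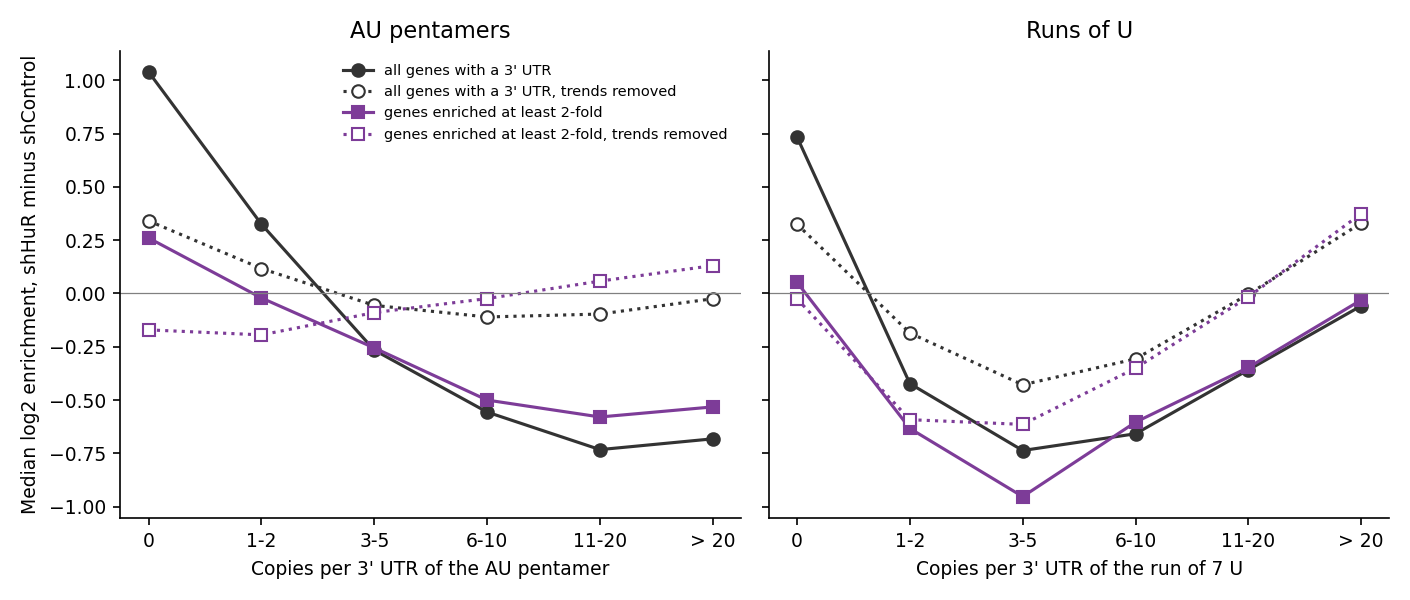
Median log2 enrichment in shHuR minus shControl (vertical axis) by copies of ATTTA (left) and TTTTTTT (right) per 3′ UTR, for all genes with a 3′ UTR and for those enriched at least 2-fold, before (filled, solid) and after (open, dotted) removal of GC and length trends. The ATTTA slope flattens after trend removal, and the U-run curve keeps its minimum at 1 to 5 copies and its rise to over 20 among enriched genes.

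The count minimum admits genes with little precision. The 161 genes whose highest count was 50 to 54 had a median difference of 0.07 with 49.1% past 2-fold. The 185 genes just outside, at 45 to 49, had 0.14 and 43.8%. Of all members, 219 had a count of 0 in at least 1 library and 10153 had 50 or more in all 4.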

How the data were processed

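The deposited table holds expected counts per gene, which the authors estimated with RSEM 1.2.3 on hg19 (GRCh37), per the submitters' processing notes. The aligner, annotation release, filters and strand setting are not given in the sources used here, so reads of overlapping and antisense genes cannot be told apart. Precipitates were made with an anti-HuR antibody and the Magna RIP kit, and libraries with the KAPA RNA HyperPrep kit, per the labels' protocols. The counts were whole as deposited. No column of the table lacked a sample.

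Levels are CPM scaled by TMM over the 4 libraries. A prior count of 2 was added for calls, medians and lists and none for named genes. Genes were called at 2-fold. The exact conditional 95% interval of the odds ratio was used for single genes, with a normal approximation for the most abundant genes. edgeR 4.0.16 in R 4.3.3 gave the quasi-likelihood test of the precipitation by shHuR interaction with Benjamini-Hochberg adjustment, which was tested on simulated data, and DESeq2 1.42.0 an alternative. GC content, length and 3′ UTRs (the longest per gene) come from GENCODE 29 on GRCh38. Identifiers were matched to symbols for 13057 of the 13902 genes. The members and lists were chosen with earlier results of these data known. Named genes are fixed ones and those with the lowest and highest differences in the whole table, among genes with a mean log2 enrichment of at least 1 and within each list. Also named are the 10 most enriched in shControl, all with at least 20 counts in each library, and 100 in a precipitate for the table-wide ranks. Alternatives were other scalings, count minimums, a prior count of 10, precipitates alone, both other lines as reference, and trends removed.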

Additional observations from a re-analysis of the deposited data

Results flagged for a closer look

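A difference between groups was tested for the enrichment of shHuR against both lines that keep HuR. By edgeR's interaction term with Benjamini-Hochberg adjustment, 216 genes were lower and 788 higher. ELAVL1 itself was lower by this term, at -1.72 on the log2 scale (SE 0.43, adjusted p = 0.00574), where the median gene was at 0.30. No group held enough libraries to look for one that stands apart.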

How the results depend on the processing

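Removing GC and length trends left 1654 genes lower and 1899 higher, of which 1148 and 1317 were also called before removal. With no count minimum the counts were 4945 and 5902, and with 50 counts in every library 1933 and 1903, so the excess of higher calls was gone. In the edgeR test, DESeq2's size factors gave 366 lower and 505 higher, no filter on low counts gave 494 higher, DESeq2's Wald test 405 and 346, and the scaling of the 4-library difference, chosen after seeing the data, 605 and 373. Without the replicate block on cell line, edgeR gave 0 lower and 0 higher (132 and 614 at an unadjusted p under 0.05). No paired analysis was possible because each group holds 1 library, beyond the pairing of precipitate and input within a line.

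All 24 list medians kept their sign under DESeq2 size factors, total counts, a prior count of 10 and both other lines as reference, 22 under trend removal and 14 with precipitates alone. With precipitates alone, which ignores input, the medians were 1.42 for inflammatory secretory genes and -1.03 for histones (both reversed), -0.24 for reported HuR targets, -3.31 for cell cycle, 0.0882 for ribosomal proteins, 1.82 for structural RNAs and -0.88 for cholesterol synthesis. With trends removed they were -1.16 for immediate early genes, 0.80 for histones, 1.33 for structural RNAs, -0.54 for UBE2 enzymes and 0.32 for zinc finger genes. The median at 0 ATTTA was 0.26 among enriched genes.

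Among single genes, precipitates alone reversed CXCL8 (6.72), IL1B (0.67), DCHS1 (-0.27), H4C11 (-0.19), H1-4 (-1.29), KNL1 (-0.0049), MCM7 (-0.50), CENPE (-1.19), LOX (0.075), COL6A2 (-0.45), SLC7A11 (1.42), PHGDH (-1.66) and TRIB3 (-0.31). Trend removal reversed COL6A2 (-0.0315) and CTSD (-0.0699). Reversal is counted here for genes past 2-fold; a further 12 of 158 named genes within 2-fold changed sign under trend removal, among them CDKN2A (-0.82), and 119 of the 158 moved beyond their counting interval without reversing. With 1 library per group, leaving out a replicate is not possible, and low precipitate counts of depleted genes limit the precision of the genes called higher.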
